A study of Rattus norvegicus with 9 samples.

Results

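Keratins, claudins and a short list of epithelial adhesion and regulator genes were followed in cultures of rat cardiac fibroblasts, the cells that make the connective tissue of the heart muscle. The set was taken by symbol from the count table: every gene named Krt or Cldn plus a number, and Cdh1, Epcam, Esrp1, Esrp2, Ap1m2, Ocln, Pkp3 and Grhl2. It held 73 of the 17337 genes in the table, of which 43 were keratins (25 of type I and 18 of type II), 22 were claudins and 8 were genes listed by symbol. A ninth listed gene, Dsp, was not analysed here. RNA had been sequenced from Sprague Dawley rat cells of 3 ages, with 3 libraries each. The fetal group came from embryonic day 18, the neonatal group from the first day after birth (postnatal day 1), and the adult group was 7 weeks old. No genetic change or drug treatment is labelled in any group. All cells were freshly isolated, grown to confluence in flasks in medium with serum, antibiotics and ascorbic acid, and lysed in TRIzol, so each library holds the RNA of everything that grew in the flask. The labels give neither a sort nor the number of animals behind a library, and p-values below measure the spread between these libraries, which may in part be technical.

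Keratins build the intermediate filaments of epithelial cells, and a filament pairs 1 type I keratin with 1 type II keratin. Krt8 with Krt18 and Krt19 mark simple epithelia, and Krt5 with Krt14, Krt15 and Krt17 mark basal cells of stratified or glandular epithelia. Claudins and occludin (Ocln) form the tight junctions that seal epithelial sheets, E-cadherin (Cdh1) joins neighbouring epithelial cells, and Epcam is an epithelial surface protein. Fibroblasts rest instead on vimentin filaments and are usually counted as low in these genes, while mesothelial cells on the surface of the heart also make simple keratins.

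The libraries held 13392825 to 22850491 assigned counts, and levels are given as counts per 1000000 after TMM scaling of the library sizes (CPM). In the 9 libraries, 1 count was worth 0.0441 to 0.0765 CPM. Levels were low throughout: 15 members (12 keratins and 3 claudins) had no count in any library, and 44 never reached 1 CPM in any library. Those 44 peaked at 17 counts (0.902 CPM) and 29 of them had at least 1 count somewhere. The other 29 members, the 8 listed genes and every keratin and claudin with at least 1 CPM in at least 1 library, are described by name. All 11 fibroblast genes on a fixed list passed the filter on low counts. So did all 13 cardiomyocyte and all 12 macrophage genes on theirs, so passing it is no check of the labelled cell type. The fibroblast genes summed to between 27030 and 78370 CPM in each library, most of it the collagen genes Col1a1 and Col3a1, with Vim next. Another collagen gene of the fibroblast list, Col1a2, had only 1 to 21 counts in any library. Cardiomyocyte genes (13 on the list, among them Nppa, Tnnt2, Actc1 and Myh7) also summed to 10330 to 14670 CPM in fetal, 6711 to 7393 in neonatal and 305.3 to 321.2 in adult libraries. In the adult libraries that sum was Tnnt2 (303, 310 and 316 CPM), and none of the other 12 genes passed 1.65 CPM.

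Fetal replicate 3 stood apart from the other fetal libraries and is therefore shown first and by itself, with no test, since it is 1 library. Over genes, the chi-square per degree of freedom was 3.94 between fetal replicates 1 and 2, but 90.02 and 97.3 between replicate 3 and each of them. Between neonatal libraries it was 2.05 to 2.76, and between adult libraries 6.76 to 42.96. The 73 members summed to 116.8, 119.5 and 711.8 CPM in fetal replicates 1, 2 and 3. The neonatal sums were 66.8, 68.7 and 71.1 CPM (68.9 ± 2.19, mean ± SD, n = 3) and the adult sums 54.0, 54.4 and 47.2 CPM (51.9 ± 4.08, SD, n = 3). Fetal replicates 1 and 2 thus lay above every neonatal library, and these above every adult one, while replicate 3 lay far above them all. In bulk RNA such as this, fewer cells of a type and less RNA per cell cannot be told apart. Keratins gave 339.1, claudins 169.3 and the listed genes 203.5 CPM of the sum in replicate 3, against 63.0, 46.2 and 7.67 CPM in replicate 1. At least 1 CPM was reached by 13, 13 and 27 members in the fetal libraries, by 8 to 10 in the neonatal and by 6 or 7 in the adult ones.

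**Figure D1:**
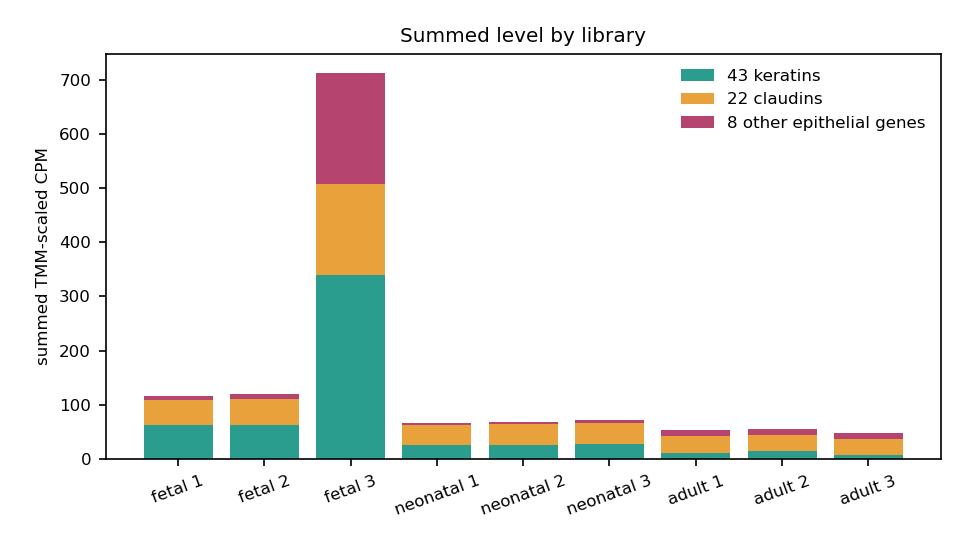
Summed TMM-scaled CPM of the 73 members in each of the 9 libraries, stacked as keratins, claudins and the 8 listed genes; each bar is 1 library and has no error bar. Fetal replicate 3 reaches 711.8 CPM, and the other 8 libraries lie between 47.2 and 119.5.

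Of the 35 members with at least 10 counts over the 3 fetal libraries, 21 (60.0%) were at least 4-fold higher in replicate 3 than the mean of replicates 1 and 2, against 3.42% of the 12023 genes with as many counts. The median ratio was 8.12 over these members and 1.00 over all such genes. By class, the 21 were 4 of 10 type I keratins, all 5 of the type II keratins, 5 of 12 claudins and 7 of the 8 listed genes. With bounds taken at their limit, the lowest of the 21 was Krt12, at least 4.33-fold higher (0, 0 and 12 counts). The highest of the rest was then Krt18, 3.02-fold higher. Krt13, at least 2.89-fold higher (1, 1 and 8 counts), has only a lower bound and may lie above it. Among the 100 genes with the largest ratios, bounds taken at their limit, 16 were members.

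Among simple-epithelial keratins the type II partner was the higher in replicate 3. Krt8 measured 10.2, 11.3 and 144 CPM in fetal replicates 1, 2 and 3, a 13.4-fold excess in the last. Krt18, which pairs with it, measured 10.2, 11.2 and 32.3 CPM. Per kilobase of exon the Krt8 to Krt18 ratio of levels was 0.822, 0.831 and 3.66 in these libraries and 1.01, 0.761 and 0.973 in the neonatal ones. Krt19, the other simple type I keratin, was not raised there, with 27.4, 24.4 and 23.6 CPM.

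Basal and other stratified keratins were near or below a few CPM in fetal replicates 1 and 2. Krt17 measured 0.378, 0.485 and 56.6 CPM (7, 11 and 1067 counts), which was 131-fold higher in replicate 3 and ranked 3 among the 11721 genes with a ratio, with lower bounds ranked at their limit. Krt14 measured 3.08, 3.48 and 55.6 CPM, a 16.9-fold excess. The third basal keratin of type I, Krt15, did not differ in this way, with 1.94, 1.54 and 1.86 CPM. Krt5, the usual type II partner of Krt14, had 0, 0 and 13 counts. Krt75, a keratin of the hair follicle, had 1, 4 and 77 counts, and Krt86, a hair keratin, had 3, 5 and 43. Krt80 measured 1.51, 1.72 and 7.85 CPM, and Krt42 had 2, 2 and 59 counts. Summed per kilobase, type I keratins were at 36.0, 34.9 and 124 CPM and type II keratins at 7.48, 8.44 and 96.8 CPM, so the type II sum was the smaller one in each fetal library but came nearest to the type I sum in replicate 3.

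Of the 8 named claudins, 5 were at least 4-fold higher in replicate 3 and 3 were not. Cldn18, which has a lung and a stomach form, measured 1.35, 1.15 and 58.4 CPM in fetal replicates 1, 2 and 3. Cldn6, known from embryonic epithelia, measured 0.486, 0.308 and 31.0 CPM. Its neighbour Cldn9 had 1, 2 and 82 counts; the rn6 spans of both lie on chromosome 10, from 13000090 to 13002858 and from 13003010 to 13004441. Cldn4 measured 0.270, 0.308 and 15.9 CPM, and Cldn7 had 1, 1 and 170 counts, at least 61.3-fold higher. In the same 3 libraries Cldn12 measured 40.2, 41.8 and 45.2 CPM, Cldn15 1.35, 1.15 and 1.75 CPM, and Cldn23 0.756, 0.308 and 1.54 CPM, so these 3 claudins stayed within 3-fold.

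The adhesion genes gave some of the largest ratios. Cdh1 measured 1.30, 2.34 and 113 CPM, a 62.1-fold excess in replicate 3. Epcam measured 0.702, 0.529 and 46.9 CPM, a 76.2-fold excess. Occludin was at 1.62, 2.12 and 16.7 CPM. Pkp3, a plaque protein of desmosomes, had 1, 3 and 64 counts. Of the regulators, Esrp1, an epithelial splicing factor, had 2, 5 and 125 counts, and Grhl2, a transcription factor that activates epithelial junction genes, had 3, 7 and 36. Esrp2, the close relative of Esrp1, was present in every fetal library at 2.81, 3.13 and 6.85 CPM. Ap1m2, the epithelial subunit of a clathrin adaptor that sorts proteins to the basolateral membrane, measured 0.918, 0.529 and 8.23 CPM.

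**Figure D2:**
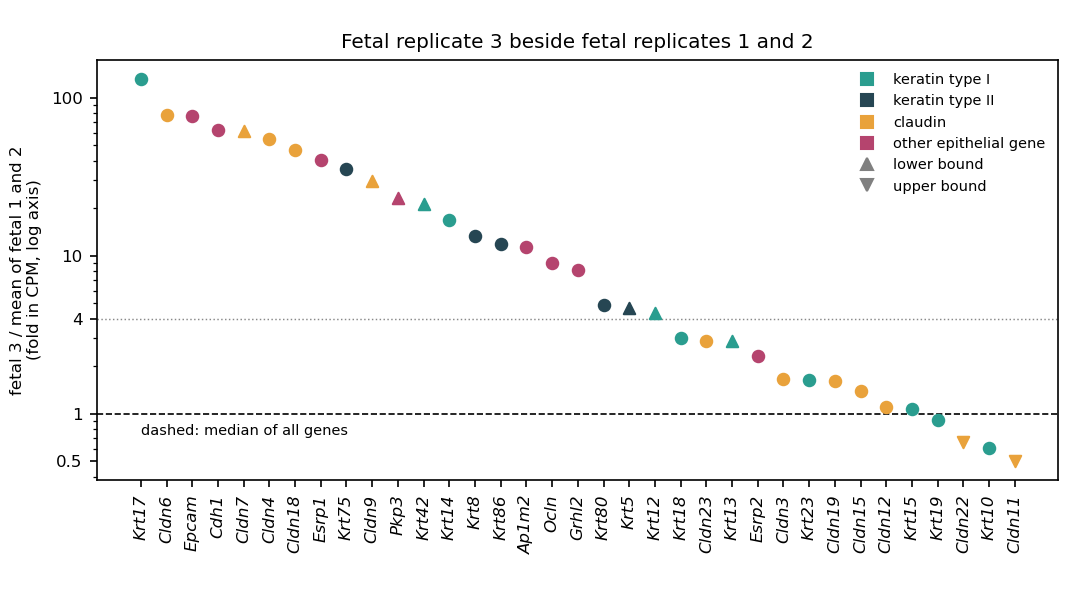
Fold of fetal replicate 3 over the mean of fetal replicates 1 and 2 (in CPM, log axis) for the 35 members with at least 10 counts over the fetal libraries; triangles are bounds computed against 3 counts, the dotted line is the 4-fold limit and the dashed line the median of all genes (1.00). The ratios run from 131 for Krt17 down past Krt10 at 0.608.

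Promoters of members that were high together in this library are shown to set their letters beside the values, with Krt18 and Cldn18 as windows that lack the letters searched. Sequences are from RefSeq on GRCr8 (not the rn6 build of the counts), matched by symbol for 53 of the 73 members. The search window ran from 250 bases before to 50 after the gene start, and the first 280 bases of it are printed. Capitals mark CAGGTG or its reverse complement CACCTG, the E-box letters that Snail and Zeb repressors bind in the Cdh1 promoter. Epcam is at chr6:12649649-12649928 on the minus strand, Cldn7 at chr10:55188420-55188699 on the plus strand, Krt8 at chr7:135010310-135010589 on the minus strand, Ocln at chr2:33441169-33441448 on the minus strand, Krt18 at chr7:135035918-135036197 on the plus strand and Cldn18 at chr8:109144590-109144869 on the minus strand.
Epcam: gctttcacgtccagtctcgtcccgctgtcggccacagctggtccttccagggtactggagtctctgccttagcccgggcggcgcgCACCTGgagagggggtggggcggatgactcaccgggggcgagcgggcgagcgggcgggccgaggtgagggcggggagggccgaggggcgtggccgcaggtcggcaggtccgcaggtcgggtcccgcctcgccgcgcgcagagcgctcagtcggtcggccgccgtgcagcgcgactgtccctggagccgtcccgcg
Cldn7: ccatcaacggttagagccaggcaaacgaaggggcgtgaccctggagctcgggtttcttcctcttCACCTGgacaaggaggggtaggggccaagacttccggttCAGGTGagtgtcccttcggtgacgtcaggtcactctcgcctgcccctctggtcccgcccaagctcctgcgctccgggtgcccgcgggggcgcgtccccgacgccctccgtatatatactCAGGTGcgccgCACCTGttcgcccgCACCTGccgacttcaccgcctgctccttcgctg
Krt8: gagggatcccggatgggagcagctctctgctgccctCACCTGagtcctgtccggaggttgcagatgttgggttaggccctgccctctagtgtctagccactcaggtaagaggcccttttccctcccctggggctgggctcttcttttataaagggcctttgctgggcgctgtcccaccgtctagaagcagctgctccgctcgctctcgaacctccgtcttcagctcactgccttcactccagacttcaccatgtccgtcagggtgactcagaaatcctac
Ocln: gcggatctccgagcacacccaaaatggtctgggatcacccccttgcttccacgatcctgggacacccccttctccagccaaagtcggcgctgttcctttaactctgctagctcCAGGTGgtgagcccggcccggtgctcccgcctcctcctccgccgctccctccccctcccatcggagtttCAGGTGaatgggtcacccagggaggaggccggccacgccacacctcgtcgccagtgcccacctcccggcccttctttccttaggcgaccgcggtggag
Krt18: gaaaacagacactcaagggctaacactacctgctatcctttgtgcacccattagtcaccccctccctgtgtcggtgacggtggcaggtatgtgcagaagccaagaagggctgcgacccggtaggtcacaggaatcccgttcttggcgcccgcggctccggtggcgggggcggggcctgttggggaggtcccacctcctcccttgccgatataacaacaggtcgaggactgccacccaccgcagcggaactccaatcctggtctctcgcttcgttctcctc
Cldn18: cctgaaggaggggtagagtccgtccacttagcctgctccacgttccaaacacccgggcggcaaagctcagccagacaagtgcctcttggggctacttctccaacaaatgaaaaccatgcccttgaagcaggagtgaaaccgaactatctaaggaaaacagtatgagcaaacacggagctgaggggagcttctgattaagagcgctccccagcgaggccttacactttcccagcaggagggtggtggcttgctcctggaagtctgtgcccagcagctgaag
Cldn7 carried these letters 5 times, Ocln 2 times, and Epcam and Krt8 once each, while the Krt18 and Cldn18 windows had none although Cldn18 was 46.8-fold higher in replicate 3. Searched on both strands, the letters were in 18.8% of the 33469 promoter windows in the RefSeq table, in 18 of the 53 matched members (34.0%), and in 7 of the 11 matched members that were at least 4-fold higher in replicate 3 (Ap1m2, Cldn6, Cldn7, Epcam, Krt5, Krt8 and Ocln). The Grhl2 letters AACCGGTT were in 0.173% of all windows and in none of the 53. The TATA box letters TATAAA, which do not overlap CAGGTG, were in 14.2% of all windows, in 20 of 32 keratin windows (62.5%) and in 1 of 18 claudin windows (Cldn20). No windows were used here for Cdh1, Krt19 or Krt14.

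Genes on other fixed lists gave the same library's wider profile. Of 22 epithelial regulator and surface genes with enough fetal counts, 12 were at least 4-fold higher in replicate 3. The list's most abundant genes, Cldnd1 (71.8, 75.5 and 84.0 CPM) and Spint2 (60.8, 57.6 and 76.1 CPM), were not among them. Lad1 (1, 4 and 157 counts) and Spint1 (11, 13 and 239 counts), both picked after their values were seen, were. Others of the list went the other way, with Muc1 at 18, 26 and 0 counts and Ovol1 at 12, 8 and 4. Only 2 of 15 tight junction partners reached 4-fold, Crb3 and Marveld2, while the scaffold Tjp1 was at 231, 233 and 272 CPM. For desmosome and hemidesmosome partners it was 3 of 11 (Ppl, Itgb4 and Evpl). None of 12 adherens junction partners reached it, with the catenin Ctnnb1 at 598, 577 and 522 CPM. The list of repressors of epithelial genes, which holds Snail, Zeb and Twist genes, Tcf4 and Foxc2, gave 0 of 8. Zeb1 was at 107, 114 and 97.4 CPM and Zeb2 at 85.4, 99.7 and 65.2 CPM. Vimentin (Vim) was at 3706, 3363 and 3940 CPM.

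Markers of other cells moved with the same library. On the lung epithelium list 5 of 11 genes were at least 4-fold higher in replicate 3, among them Nkx2-1 (2, 3 and 185 counts), Scgb1a1 (3, 6 and 244 counts) and Lamp3 (6, 6 and 98 counts), named after their values were seen. Also among them were the surfactant gene Sftpc (0, 0 and 14 counts) and Lyz2 (23, 20 and 234 counts). Lyz2 was far higher in adult libraries (1730 to 2634 CPM), as the macrophage genes were. Of the genes under 4-fold, Ager (3.69-fold), Foxa2 (3.06-fold) and Foxa1 (at least 2.89-fold) were higher in replicate 3. Hopx was at 1.09-fold, and Etv5 (0.706-fold) and Sox9 (0.459-fold) were lower. Sftpa1, Sftpb and Shh had no count in any library. The summed lung list was 147.5, 139.2 and 142.7 CPM, mostly Sox9 and Etv5, which the fibroblast cultures of all ages also expressed. Macrophage genes were at least 4-fold higher for 10 of 11, with a sum of 14.2, 13.97 and 62.3 CPM. Cartilage gave 3 of 9 (Col2a1, Hapln1 and Col9a1), with a summed list of 1177, 1201 and 495.2 CPM that was mostly Col11a1, thymus and thyroid epithelium 1 of 5 (sums 3.94, 4.01 and 8.60 CPM), liver 1 of 2 (0.648, 0.485 and 1.11 CPM), and endothelium 1 of 11 (238.3, 233.1 and 196.9 CPM, mostly Flt1). Mesothelium and epicardium (11 genes, sums 218.8, 214.9 and 151.9 CPM) and Schwann cells (7 genes, 172.8, 191.9 and 242.6 CPM) gave none. The fibroblast list had a median ratio of 0.467, with sums of 54120, 51000 and 27570 CPM, and the cardiomyocyte list 0.800. The part of these cell types in the members' values was not tested.

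**Figure D3:**
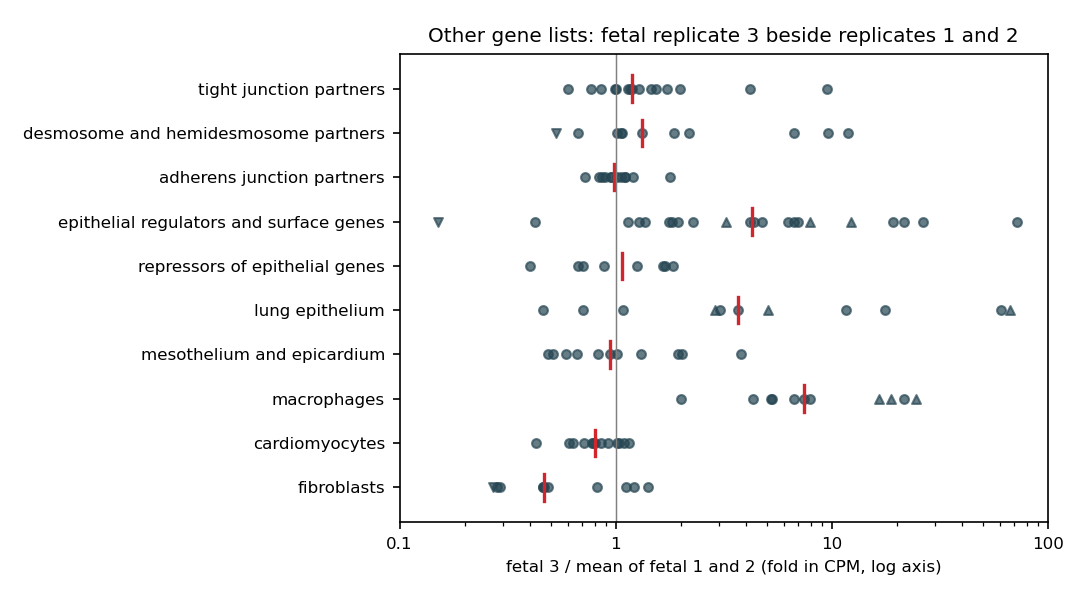
Fold of fetal replicate 3 over the mean of fetal replicates 1 and 2 (in CPM, log axis) for each gene with at least 10 counts over the fetal libraries on 10 of the other lists; points are genes, triangles are bounds against 3 counts and red bars are list medians. Medians are 7.47 for macrophages, 4.29 for epithelial regulators, 3.69 for lung epithelium and 0.467 for fibroblasts.

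Differences between ages were tested across all 11337 genes that passed the filter on low counts, with all 9 libraries in the fit. Only 15 members passed it: 8 keratins, 3 claudins and the listed genes Cdh1, Ocln, Ap1m2 and Esrp2. The filter asks for about 10 counts (0.614 CPM) in as many libraries as 1 age has, which 6 of the 15 met in every age, 3 in the fetal age only and 1 in the neonatal age only. A gene let in by its high age had to differ, so the counts below describe the tested members and do not support a trend of the family. Called means an adjusted p under 0.05 in edgeR's quasi-likelihood test with Benjamini-Hochberg adjustment over all genes tested, and log2 differences are given with their standard errors. Where every library of an age was at or below 3 counts, the fold is a lower bound against 3 counts per library.

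**Figure D4:**
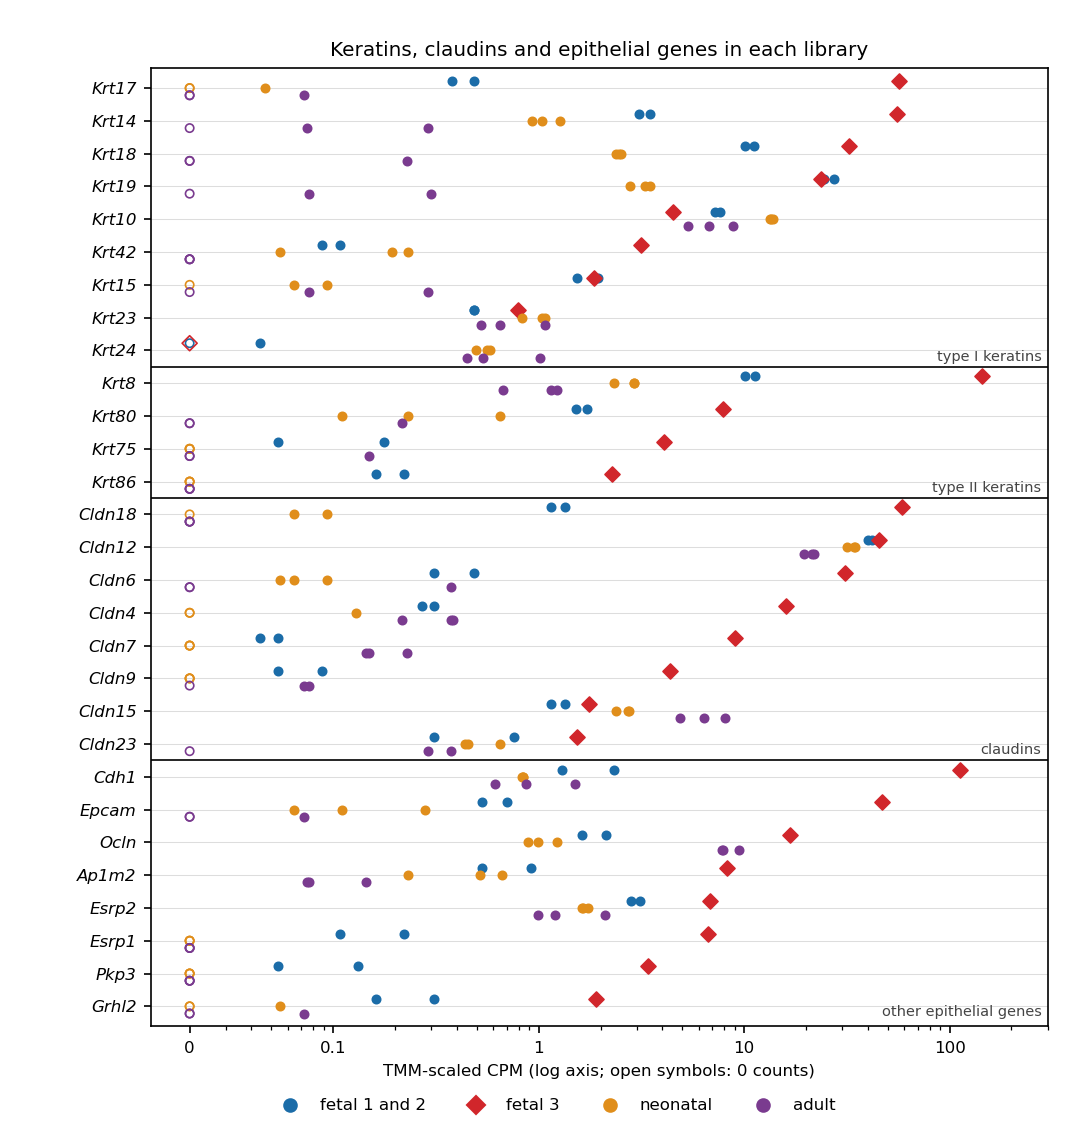
TMM-scaled CPM of the 29 named members in each library (log axis with 0 at its left end, open symbols for 0 counts), by family; each point is 1 library. Fetal replicate 3 lies to the right of the other libraries for most genes, but not for Krt19, Krt15, Krt10, Krt23, Krt24 or Cldn15.

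Neonatal cultures were lower than fetal ones in most tested members, from the simple keratins to Cldn18, and higher in 2. Of the 15 members, 13 were called, 11 lower and 2 higher (Krt10 and Cldn15), against 36.3% of all genes tested (18.3% higher and 18.0% lower). The libraries of both ages did not overlap for 14 of the 15, against 57.4% of all genes. With fetal replicate 3 in the fit, the median log2 difference was -2.87 over the members and -0.01 over all genes. No median was taken without that library, and the differences of several members shrank without it, as given below. Without fetal replicate 3 the same 13 were called, of 16 tested, against 40.6% of genes. Without neonatal replicate 1, 2 or 3 only 4, 5 and 6 members were called, and Cdh1, Cldn15, Cldn18, Esrp2, Krt14, Krt8 and Ocln lost the call each time, with all genes called dropping from 4114 to 2607, 2476 and 2575. Cdh1, Cldn18 and Ocln also lost this call with no filter on low counts.

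Per kilobase of exon, Krt19, Krt18 and Krt8 were the highest keratins in fetal replicates 1 and 2. Krt19 measured 27.4, 24.4 and 23.6 CPM in fetal and 3.30, 2.79 and 3.50 CPM in neonatal libraries. The ages did not overlap, all fetal libraries were alike, and Krt19 fell by 2.98 on the log2 scale (SE 0.24, edgeR adjusted p = 5.3e-05). It fell in every variant of the comparison that left out a library. Krt18, at 10.2, 11.2 and 32.3 CPM in fetal libraries, was at 2.37, 2.51 and 2.46 CPM in neonatal ones, a log2 difference of -2.87 (SE 0.50, edgeR adjusted p = 0.00289), or -2.12 without fetal replicate 3. Krt8 was at 2.92, 2.32 and 2.91 CPM in neonatal libraries, below every fetal one, with a log2 difference of -4.34 (SE 1.07, edgeR adjusted p = 0.0143) that shrank to -1.99 without replicate 3.

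The basal keratins differed in how much 1 library carried. Krt15 had 36, 35 and 35 counts in the fetal and 0, 2 and 1 in the neonatal libraries, so it was at least 10.7-fold lower in the latter (edgeR adjusted p = 0.00107). Krt14 measured 1.27, 0.929 and 1.03 CPM in neonatal libraries against 3.08, 3.48 and 55.6 in fetal ones, a log2 difference of -4.26 (SE 1.18, edgeR adjusted p = 0.0228) that became -1.61 without replicate 3 (adjusted p = 0.00293). Krt17 was not tested; its neonatal libraries had 0, 1 and 0 counts. Krt80, at 0.110, 0.232 and 0.647 CPM in neonatal cultures, was lower by a log2 difference of -3.52 (SE 0.89, edgeR adjusted p = 0.0149), or -2.35 without replicate 3.

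The keratins of other epithelia went the other way or did not pass. Krt10, a keratin of differentiated epidermis, measured 7.18, 7.67 and 4.51 CPM in fetal and 13.8, 13.6 and 13.3 CPM in neonatal libraries. It rose by 1.07 on the log2 scale (SE 0.23, edgeR adjusted p = 0.00654). Krt23 was at 0.486, 0.485 and 0.796 CPM in fetal and 0.825, 1.07 and 1.03 CPM in neonatal libraries and was not called (log2 difference 0.73, SE 0.37, edgeR adjusted p = 0.151). Krt24, not tested, had 0, 1 and 0 counts in fetal libraries and 9, 12 and 9 in neonatal ones, which did not overlap.

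Among claudins, Cldn12 measured 40.2, 41.8 and 45.2 CPM in fetal and 31.5, 34.4 and 34.7 CPM in neonatal libraries, a small difference of -0.34 (log2, SE 0.08, edgeR adjusted p = 0.011). Cldn15 moved the opposite way, from 1.35, 1.15 and 1.75 to 2.75, 2.37 and 2.72 CPM (log2 0.88, SE 0.26, edgeR adjusted p = 0.0268). Cldn18 had 25, 26 and 1101 counts in fetal libraries and 0, 2 and 1 in neonatal ones. It was at least 122-fold lower in the latter, or at least 7.51-fold with replicate 3 left out (edgeR adjusted p = 0.0371 with it and 0.000784 without). Cldn6, Cldn4, Cldn7 and Cldn9 were not tested and had at most 2 counts in any neonatal library.

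Of the adhesion genes, Cdh1 measured 0.825, 0.836 and 0.841 CPM in neonatal libraries, below the 1.30, 2.34 and 113 CPM of the fetal ones. The log2 difference was -5.53 (SE 1.70, edgeR adjusted p = 0.0333) and dropped to -1.13 without replicate 3 (adjusted p = 0.0347). Ocln was at 0.991, 0.883 and 1.23 CPM in neonatal libraries against 1.62, 2.12 and 16.7 in fetal ones, a log2 difference of -2.72 (SE 0.87, edgeR adjusted p = 0.0381), or -0.88 without replicate 3. The splicing factor Esrp2 was at 1.65, 1.63 and 1.75 CPM against 2.81, 3.13 and 6.85, a log2 difference of -1.34 (SE 0.39, edgeR adjusted p = 0.0265). Ap1m2, at 0.660, 0.232 and 0.518 CPM in neonatal libraries, overlapped the fetal ones and was not called (adjusted p = 0.0582). Epcam had 2, 6 and 1 counts, Grhl2 1, 0 and 0, and Esrp1 and Pkp3 none in the neonatal libraries.

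Adult cultures were lower than fetal ones in the keratins Krt8, Krt14, Krt15, Krt18, Krt19 and Krt80 and in Cldn12, showed no call for Krt10 and were higher in Cldn15. Of the 15 members, 12 were called, 11 lower and 1 higher (Cldn15), against 70.5% of all genes (34.9% higher and 35.5% lower). The libraries did not overlap for 11, against 71.8% of all genes. With fetal replicate 3 in the fit, the median log2 difference was -4.92 over the members and -0.01 over all genes. It was -3.85 over the members with the 4 genes at the floor set to their bounds. No median was taken without that library here either. Without fetal replicate 3 there were again 12 of 16 called, against 74.8% of genes, with Cdh1 lost and Ocln gained. With no filter on low counts, 20 of 58 members were called, against 58.1% of genes. This comparison and the last share the fetal libraries.

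Krt19 had 508, 553 and 445 counts in fetal libraries and 1, 0 and 4 in adult ones. It fell by 7.58 on the log2 scale (SE 0.39, edgeR adjusted p = 2.36e-07). Krt18 had 3, 0 and 0 counts in the adult libraries, at least 79.9-fold lower than fetal and at least 47.7-fold with replicate 3 left out (edgeR adjusted p = 3.2e-05 with it). Krt8 kept a low level at 1.15, 1.23 and 0.674 CPM, below every fetal library, a log2 difference of -5.75 (SE 1.26, edgeR adjusted p = 0.00295) or -3.40 without replicate 3. Simple keratins thus did not vanish together: Krt8 had 15, 17 and 9 adult counts, while its partners Krt18 and Krt19 had at most 4.

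Krt14, with 0, 4 and 1 adult counts, differed from the fetal libraries by -7.30 on the log2 scale (SE 1.65, edgeR adjusted p = 0.00358), and by -4.65 without replicate 3. Krt15, with 1, 4 and 0 adult counts, had a log2 difference of -3.77 (SE 0.66, edgeR adjusted p = 0.000683) that hardly moved without replicate 3 (-3.73). Krt80 had 0, 3 and 0 counts and lay at least 16.5-fold under the fetal libraries, or at least 7.23-fold without replicate 3 (edgeR adjusted p = 0.00228 with it). Krt10 was at 6.73, 8.81 and 5.32 CPM, inside the range of the fetal libraries (edgeR adjusted p = 0.7). Krt23 was at 1.07, 0.650 and 0.524 CPM and was not called (edgeR adjusted p = 0.454). Krt24 had 7, 14 and 6 adult counts, above the fetal 0, 1 and 0, and was not tested.

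Cldn15, the claudin with a rise, measured 8.03, 6.35 and 4.87 CPM in adult libraries, all above the fetal 1.35, 1.15 and 1.75. It rose by 2.18 on the log2 scale (SE 0.26, edgeR adjusted p = 4.88e-05). Cldn12 measured 21.8, 21.3 and 19.6 CPM, a log2 difference of -1.02 (SE 0.08, edgeR adjusted p = 4.24e-06) that was -0.98 without replicate 3. Cldn18 had no count in any adult library and was at least 90.8-fold lower, or at least 5.58-fold without replicate 3 (edgeR adjusted p = 0.0209 with it). The untested Cldn4 (5, 3 and 5 adult counts) and Cldn7 (3, 2 and 2) overlapped the fetal libraries.

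Occludin stood out among the listed genes. It measured 9.41, 7.80 and 7.86 CPM in adult libraries, above fetal replicates 1 and 2 (1.62 and 2.12) and below replicate 3 (16.7). With replicate 3 it was not called (log2 0.30, SE 0.75, edgeR adjusted p = 0.734), and without it the log2 difference was 2.14 (edgeR adjusted p = 3.88e-06). Cdh1 measured 0.612, 0.867 and 1.497 CPM in adult libraries, which overlapped the fetal range. Its log2 difference was -5.28 (SE 1.72, edgeR adjusted p = 0.0217), but -0.89 with an adjusted p of 0.0583 without replicate 3, and the call was lost as well without any 1 of the adult libraries. Esrp2, at 0.995, 2.09 and 1.20 CPM, had a log2 difference of -1.56 (SE 0.41, edgeR adjusted p = 0.00703), or -1.05 without replicate 3. Ap1m2 had 1, 2 and 1 adult counts and fell below the fetal libraries by at least 14.4-fold, which became at least 3.24-fold without replicate 3 (edgeR adjusted p = 0.00897 from all 9 libraries). Epcam had 0, 1 and 0 adult counts, Grhl2 0, 1 and 0, and Esrp1 and Pkp3 none.

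**Figure D5:**
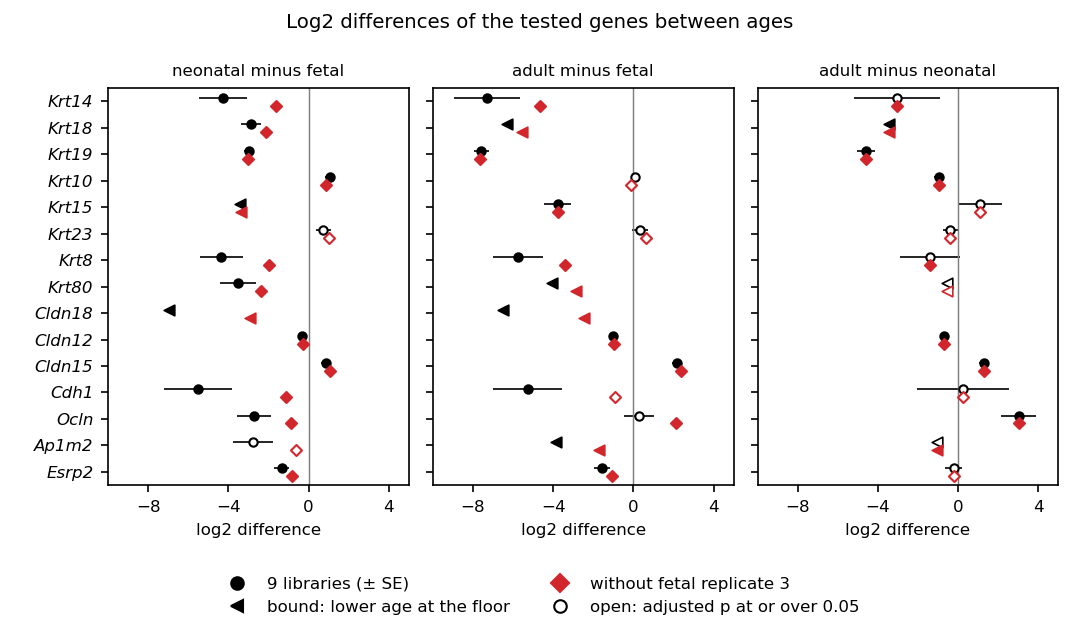
Log2 differences between ages for the 15 tested members: black circles are the fit to 9 libraries (bars are ± SE), red diamonds the fit without fetal replicate 3, and triangles lower bounds for genes whose lower age is at or below 3 counts in every library; filled symbols have an adjusted p under 0.05, and Cldn18 has no adult minus neonatal value because both ages are at the floor. Krt19, Krt15 and Cldn12 barely move without replicate 3, while Cdh1 goes from -5.53 to -1.13 between neonatal and fetal libraries. Krt10 goes from 1.07 to 0.87 there, and its uncalled adult minus fetal difference changes sign.

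Between neonatal and adult cultures, which do not involve the fetal values, 6 of the 15 members were called, 4 lower in adult (Krt10, Krt18, Krt19 and Cldn12) and 2 higher (Cldn15 and Ocln), against 63.5% of all genes (31.6% higher and 31.8% lower). The libraries did not overlap for 9, against 76.1% of all genes, and the median log2 difference was -0.96 (-0.62 with genes at the floor at their bounds), against -0.01 over all genes. All 9 libraries share 1 estimate of the spread, and without fetal replicate 3 Krt8, Krt14 and Ap1m2 were called too, 9 of 16 against 72.2% of genes.

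Krt19 was at 3.30, 2.79 and 3.50 CPM in neonatal libraries and at 0.0765, 0 and 0.299 CPM in adult ones, a log2 difference of -4.60 (SE 0.45, edgeR adjusted p = 2.21e-05). Krt18 went from 43, 54 and 38 counts to 3, 0 and 0, a fall of at least 10.9-fold (edgeR adjusted p = 0.00194). Krt8, at 2.92, 2.32 and 2.91 and then 1.15, 1.23 and 0.674 CPM, did not overlap either, but the fit with replicate 3 did not call it (log2 -1.40, SE 1.49, edgeR adjusted p = 0.435) and the fit without it did (log2 -1.41, adjusted p = 0.00038). Krt10 fell by 0.96 on the log2 scale (SE 0.23, edgeR adjusted p = 0.00482), from 13.8, 13.6 and 13.3 to 6.73, 8.81 and 5.32 CPM, so its neonatal libraries were the highest of the 3 ages.

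Ocln rose by 3.02 on the log2 scale (SE 0.87, edgeR adjusted p = 0.0145), from 0.991, 0.883 and 1.23 to 9.41, 7.80 and 7.86 CPM. This call was lost without neonatal replicate 2, and the groups did not overlap. Cldn15 rose by 1.30 (log2, SE 0.24, edgeR adjusted p = 0.00131) and Cldn12 fell by 0.68 (log2, SE 0.08, edgeR adjusted p = 8.63e-05). Cdh1 did not differ detectably (log2 0.25, SE 2.30, edgeR adjusted p = 0.932), and Esrp2 was not called (edgeR adjusted p = 0.671).

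Per kilobase of exon, levels of the members ranked differently by age. In fetal replicates 1 and 2 (means) the order was Krt19 at 18.8, Cldn12 at 11.8, Krt18 at 7.80, Krt8 at 6.45 and Krt10 at 4.70 CPM per kilobase. In neonatal libraries it was Cldn12 at 9.64, Krt10 at 8.58 and Cldn15 at 3.82, and in adult libraries Cldn15 at 9.38, Cldn12 at 6.01, Krt10 at 4.40 and Ocln at 2.02. In fetal replicate 3 Krt8 led at 86.3, followed by Krt14 at 38.1, Cldn18 at 38.0, Krt17 at 37.6, Epcam at 32.1 and Cdh1 at 25.7, with no spread to tell Krt14, Cldn18 and Krt17 apart. Cldn12 alone made up 34.4% and 35.0% of the members' counts in fetal replicates 1 and 2, 47.2% to 50.1% in neonatal and 39.1% to 41.6% in adult libraries. Type I keratins summed to 15.2 to 15.3 CPM per kilobase in neonatal and 4.59 to 7.50 in adult libraries, and type II keratins to 1.62 to 2.48 and 0.761 to 1.48.

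Junction partners that many cell types share were followed from fixed lists. Of 14 tight junction partners tested, 13 were lower and 1 higher in adult than in fetal cultures (median log2 -1.20), 6 lower and 2 higher in neonatal than in fetal ones (-0.38), and 11 lower and 1 higher in adult than in neonatal ones (-1.01). The scaffold Tjp1 fell by 1.997 on the log2 scale between fetal (231, 233 and 272 CPM) and adult (69.8, 59.8 and 54.8 CPM) libraries (edgeR adjusted p = 2.54e-07). Of 12 adherens junction partners, 10 were lower and 1 higher in adult than in fetal libraries (median -1.19), with vinculin (Vcl) and the catenins Ctnna1 and Ctnnb1 among those lower, and 2 were lower and 2 higher in neonatal ones. Of 10 desmosome and hemidesmosome partners 5 were lower and 2 higher in adult than in fetal libraries (median -1.05). In that comparison 35.5% of all genes were lower and 34.9% higher. The shares were 18.0% lower and 18.3% higher for neonatal against fetal libraries, and 31.8% and 31.6% for adult against neonatal ones. Pkp1, a desmosome plaque protein, measured 238, 222 and 430 CPM in fetal, 93.8, 95.8 and 89.9 in neonatal and 33.4, 50.1 and 56.1 in adult libraries, and fell between fetal and adult by 2.67 (log2, edgeR adjusted p = 3.31e-05).

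Of 13 intermediate filament genes other than keratins tested, 8 were lower and 2 higher in adult than in fetal libraries. Vim rose by 0.53 (log2, edgeR adjusted p = 0.00103) between fetal and adult libraries (4804, 5336 and 5783 CPM in adult). Of 14 epithelial regulator genes tested, 6 were lower and 1 higher in adult than in fetal libraries, and of 8 repressors of epithelial genes 3 were lower and 2 higher, beside the shares of 35.5% and 34.9% for the whole table. Snai1 rose by 1.75 (log2, edgeR adjusted p = 2.5e-05), from 37.6, 30.6 and 42.99 to 161, 108 and 105 CPM, Zeb2 rose by 0.76 (edgeR adjusted p = 0.000884) and Zeb1 fell by 1.09 (edgeR adjusted p = 0.000124).

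Markers of other cell types were followed across the ages as well. Of all genes tested, 34.9% were higher and 35.5% lower in adult than in fetal libraries. In neonatal against fetal libraries 18.0% were lower. All 12 macrophage genes were higher in adult than in fetal libraries (median log2 7.27), and their sum was 13.97 to 62.3 CPM in fetal, 108.1 to 119.6 in neonatal and 2695 to 3592 in adult libraries. All 13 cardiomyocyte genes were lower in adult than in fetal libraries (median -10.9), and 12 of them in neonatal ones. Of 10 mesothelium and epicardium genes 6 were higher and 3 lower in adult than in fetal libraries. Their sums of 151.9 to 218.8, 243.9 to 251.1 and 448.7 to 1129 CPM at the 3 ages were led in adult libraries by Aldh1a2, C3 and Tcf21, the last also on the fibroblast list. The 3 lower genes, named after their values were seen, were Msln, Upk1b and Gpm6a, with log2 differences of -1.43, -3.89 and -2.94 (edgeR adjusted p = 0.00589, 5.12e-06 and 0.000175). Wt1 and Tbx18 were among the 6 higher, by 0.56 and 0.68 (log2, edgeR adjusted p = 0.0471 and 0.0197), so the list did not move as one. Msln itself measured 18.8, 18.0 and 18.6 CPM in fetal and 12.3, 4.55 and 3.82 CPM in adult libraries. Of 10 endothelial genes tested, 4 were higher and 2 lower in adult than in fetal libraries (median 1.22). Their sums were 196.9 to 238.3, 148.0 to 149.0 and 184.4 to 205.1 CPM, of which Flt1 was most in fetal libraries and fell by 1.40 on the log2 scale (edgeR adjusted p = 1.51e-06) while Tie1 rose by 7.37 (edgeR adjusted p = 8.9e-10). The part of these cell types in the members' differences between ages was not tested. The deposited counting left out reads that map to several places, so closely similar keratins such as Krt14, Krt16 and Krt17 are uncertain, as are Cldn18 and Esrp2, whose spans overlap Arpp19 and Nfatc3.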

How the data were processed

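RNA of 9 libraries (3 per age) was measured. Raw gene counts were deposited; per the file headers the authors made them with featureCounts 1.6.3 on rn6, with only the annotation and output options given, so strand was not used. Per the submitters' processing notes, Trimmomatic 0.39, STAR 2.5.2b and Subread 1.6.3 were also used. Exon length per gene, used here for values per kilobase, came with the deposited counts. A deposited table of normalized values was not used.

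Here, edgeR 4.0.16 (R 4.3.3) was run on the counts: filterByExpr by age, TMM, a robust quasi-likelihood fit to all 9 libraries with age as the only term, and Benjamini-Hochberg adjustment over 11337 genes. The floor was 3 counts per library, and bounds and floors cover counting error only. Named members are the listed genes and every keratin or claudin with at least 1 CPM in a library, and for other lists up to 4 genes with the highest mean CPM and those at 0. Fetal replicate 3 was compared by ratio, with no test, over genes with at least 10 fetal counts. No pair of libraries of 1 age agreed within counting noise. The code was tested on simulated data. Alternatives were DESeq2 1.42.0, other scalings and filters, only the ages compared, a replicate block, a non-robust fit, a log2 minimum of 1 and leaving out each library. Members and lists were chosen with earlier results of these data known.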

Additional observations from a re-analysis of the deposited data

How the results depend on the processing

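No called difference of a named member changed direction under any alternative run; the uncalled adult minus fetal difference of Krt10 went from 0.11 to -0.10 (log2) without fetal replicate 3. Requiring a log2 difference of at least 1 left 1272 genes called for neonatal against fetal, 3675 for adult against fetal and 2838 for adult against neonatal libraries. With no filter on low counts, 20 of 58 members were called between adult and fetal libraries, with the 12 still among them, but Cdh1, Cldn18 and Ocln lost the call between neonatal and fetal libraries (edgeR adjusted p = 0.0559, 0.0674 and 0.0588). Leaving out 1 library at a time gave 2476 to 4679 genes and 4 to 14 members called for neonatal against fetal, 7509 to 8616 genes and 11 to 14 members for adult against fetal, and 6210 to 8322 genes and 5 to 9 members for adult against neonatal libraries. The lowest counts between neonatal and fetal came without neonatal replicate 1, 2 or 3 (2607, 2476 and 2575 genes, 4, 5 and 6 members). The cause was not tested. Scaling by library size alone moved the split between neonatal and fetal libraries from 2074 higher and 2040 lower to 1360 and 3325, and there exchanged Cldn15 for Ap1m2 among the members called.

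With replicate number as a block, 11, 12 and 6 members and 3713, 7801 and 6985 genes were called in the 3 comparisons in the order above. Cdh1 and Ocln lost the call between neonatal and fetal libraries, and no other member did. Deviations of same-numbered libraries correlated at -0.065 to 0.052, and those of other pairs at -0.055 to 0.080. With 3 libraries per age, these values cannot show whether same-numbered libraries shared an isolation or a batch. DESeq2 called 9, 8 and 5 members. Among members called in the main fit, it gave no adjusted p for Cdh1, Cldn18, Krt14 and Krt8 in both comparisons with fetal libraries. The same held for Ocln in both comparisons with neonatal ones. Members not called in the main fit were not listed in this way. With only the compared ages in the fit, Cdh1 and Ocln lost the call between neonatal and fetal libraries, and Ap1m2, Cdh1 and Cldn18 between adult and fetal ones. Without fetal replicate 3, log2 differences of Cdh1, Krt8, Krt14 and Cldn18 from the fetal age shrank as given above. Of the 58 members that were not tested, those near the floor allow no fold at this depth.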
